A study of Homo sapiens with 6 samples.

Results

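The EGF receptor family and its ligands were described here as 10 genes taken by name from a table of 78932 genes: the 4 receptors EGFR, ERBB2, ERBB3 and ERBB4 and the 6 ligands AREG, EREG, HBEGF, TGFA, BTC and NRG1. Poly(A) RNA was sequenced from 6 libraries of HCC1937, an established line from a BRCA1-mutated breast carcinoma without ERBB2 amplification. In 3 libraries the cells had been treated for 24 h with 8 nM docetaxel, a taxane that stabilises microtubules, and the 3 others are labelled con for control, without a statement of what those cells received. All 6 libraries come from the same line, so each group speaks for that line only. The labels call the 3 libraries of a group biological replicates but do not say whether these were separate cultures. The p-values therefore reflect only how far these libraries differ from each other, which may be technical. The labels name no question about these receptors, and the comparison of docetaxel with control is given for each of them.

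The receptors of this family sit in the plasma membrane and act in pairs. A ligand bound outside the cell brings receptors together and switches on the tyrosine kinase inside, which feeds the RAS-ERK and PI3K-AKT cascades. EGFR binds EGF, AREG, EREG, HBEGF, TGFA, BTC and EPGN, while ERBB3 and ERBB4 bind neuregulins. EGF itself is not among the genes described here. ERBB2 has no known ligand of its own and serves as the preferred partner of the others, and ERBB3 has a weak kinase and depends on its partner. The ligands are made as membrane proteins and are released by proteases of the ADAM family. In breast cancer ERBB2 is best known for its amplification, and EGFR is a common feature of basal-like tumours.

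Library totals ran from 38622062 to 41675186 counts, and 18040 genes had enough reads to be tested. A count of 0 allows a level of up to 3 counts, which lay between 0.0704 and 0.0786 CPM in a library (CPM, counts scaled to library size with TMM factors). Limits and intervals of this kind cover counting error only. Of the counts from 1 to 10 in the table, 59.8% were even, and whether both reads of a pair were counted is not given in the sources used here. Of 9 epithelial markers 5 had enough reads to test, with KRT8 at 1809 ± 60 and KRT18 at 632 ± 18 CPM in control (SD, n = 3), while EPCAM had 0 to 8 reads in a library and CDH1 averaged 0.645 CPM in control. KRT7 was at 416 ± 19 and KRT17 at 4.81 ± 0.66 CPM in control. KRT19 and KRT14 had 0 to 12 reads in a library, and KRT5 had 0 to 4. Among 5 markers of blood and endothelial cells, PTPRC, CD3E and CD68 had 0 to 3 reads in a library, and the summed level of all 5 was 1.72 to 2.47 CPM in control and 2.39 to 3.08 CPM with docetaxel. Of 7 mesenchymal markers 4 were tested, and the summed level of all 7 was 506 to 513 CPM in control and 498 to 509 CPM with docetaxel. Most of it came from VIM and COL1A1, at 368 ± 5 and 137 ± 2 CPM in control (SD, n = 3). PDGFRB and FN1 averaged 4.37 and 0.768 CPM in control, and CDH2, COL3A1 and DCN had 0 to 16 reads in a library. Of the 5 tested epithelial markers 4 rose, beside 9.14% of all tested genes, and 2 of the 5, KRT7 and KRT8, were higher in a fit with offsets for GC content and length. The summed level of the 9 was 2777 to 2909 CPM in control and 3306 to 3422 CPM with docetaxel. The part of these markers in the results on the receptors was not tested.

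The promoters of 5 members are shown because these genes lie at the ends of the range of read counts. EGFR and ERBB2 had the most reads of the 10 members, and AREG, BTC and EREG had the fewest, with 8, 3 and 0 in all libraries together. Each sequence is the 250 bases before a transcription start in RefSeq on GRCh38.p14, written 5′ to 3′ on the strand of the gene. They lie at chr7:55018767-55019016 (plus strand), chr17:39687844-39688093 (plus strand), chr4:74444886-74445135 (plus strand), chr4:74794524-74794773 (minus strand) and chr4:74364895-74365144 (plus strand), in the order given. Where the table held several starts for a gene the first was taken. The windows of ERBB2 and BTC lie for the larger part inside the genes as annotated, whose 5′ ends are at 39687914 and 74794686. Capitals mark matches, on either strand, to the motifs searched:
EGFR: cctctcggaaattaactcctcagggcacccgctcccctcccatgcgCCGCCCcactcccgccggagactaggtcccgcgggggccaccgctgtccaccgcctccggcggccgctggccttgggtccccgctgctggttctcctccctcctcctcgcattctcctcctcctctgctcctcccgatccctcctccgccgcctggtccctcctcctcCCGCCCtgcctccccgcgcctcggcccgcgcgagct
ERBB2: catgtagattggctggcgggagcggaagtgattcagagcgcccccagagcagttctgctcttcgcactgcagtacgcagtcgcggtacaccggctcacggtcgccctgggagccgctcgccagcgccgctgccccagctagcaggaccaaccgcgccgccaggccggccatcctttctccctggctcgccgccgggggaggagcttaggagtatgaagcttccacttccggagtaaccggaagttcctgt
AREG: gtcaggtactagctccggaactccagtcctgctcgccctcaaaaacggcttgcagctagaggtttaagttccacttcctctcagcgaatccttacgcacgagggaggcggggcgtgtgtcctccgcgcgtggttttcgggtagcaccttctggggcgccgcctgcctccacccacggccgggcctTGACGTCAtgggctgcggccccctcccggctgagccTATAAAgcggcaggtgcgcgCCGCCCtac
BTC: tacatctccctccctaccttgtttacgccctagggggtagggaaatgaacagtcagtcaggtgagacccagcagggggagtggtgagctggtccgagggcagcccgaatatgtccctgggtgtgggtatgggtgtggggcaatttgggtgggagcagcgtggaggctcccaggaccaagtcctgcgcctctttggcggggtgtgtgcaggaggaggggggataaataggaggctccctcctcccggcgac
EREG: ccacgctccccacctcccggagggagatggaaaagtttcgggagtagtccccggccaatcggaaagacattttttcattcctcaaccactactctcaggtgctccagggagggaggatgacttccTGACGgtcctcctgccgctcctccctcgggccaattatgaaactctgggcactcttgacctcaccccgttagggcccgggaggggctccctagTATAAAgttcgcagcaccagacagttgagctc

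The TATA box was searched as TATAAA and the core of the cAMP response element as TGACG. The GC box was searched as GGGCGG and the AP-1 site as TGAGTCA. The EGR site was searched by its part GTGGGCG, which can overlap a GC box, and the E-box as CACGTG. AREG and EREG each held 1 match to TATAAA, which is found in 10.7% of 35116 promoter windows of the same length. AREG held 2 overlapping matches to TGACG, which together spell the full palindromic element, and EREG held 1, and 21.2% of windows held at least 1. EGFR had neither of these motifs and held 2 matches to GGGCGG, and AREG held 1, against 42.6% of windows with any. ERBB2 and BTC held none of the 6 motifs. The GC content of the windows was 73.6% for EGFR, 65.6% for ERBB2, 65.2% for AREG, 62.0% for BTC and 58.0% for EREG, with a median of 58.0% over all windows. Of the 8 members with a window, none held the AP-1, EGR or E-box letters, found in 4.20%, 8.53% and 6.34% of windows. A match is a description of letters and not a binding site, and no match says only that these letters are not in the window.

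Levels of different genes are compared in TPM, in which each count is divided by the length of the gene and scaled to a fixed total. ERBB2 had the highest level of the family in every library, at 21.8 ± 1.2 TPM in control and 23.1 ± 1.1 TPM with docetaxel (SD, n = 3 each). EGFR followed at 9.87 ± 0.17 and 8.89 ± 0.54 TPM, and no EGFR library reached the lowest ERBB2 library. Among all tested genes ERBB2 lay at the 74.6th percentile of mean TPM and EGFR at the 58.8th. HBEGF was the highest ligand of the 10 members, at 7.14 ± 1.27 TPM in control and 6.22 ± 0.46 TPM with docetaxel. ERBB3 stood at 3.48 ± 0.37 and 2.96 ± 0.06 TPM, and TGFA at 2.24 ± 0.30 and 1.75 ± 0.26 TPM. NRG1 was at 0.107 ± 0.032 TPM in control and 0.141 ± 0.023 TPM with docetaxel. ERBB4, AREG, EREG and BTC had group means of 0 to 0.0582 TPM.

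Among the members the order from ERBB2 through EGFR, HBEGF, ERBB3 and TGFA to NRG1 was the same in both groups, and the ranges of neighbours in it did not overlap in either group. The 4 lowest genes could not be ordered, since their ranges touched 0 or each other, apart from ERBB4 above EREG and BTC in control, where both had 0 reads. The deposited lengths were 15941 bases for EGFR, 10321 for ERBB2 and 21372 for NRG1. They exceed the longest annotated transcripts, of 9821, 4930 and 5931 bases. With the longest transcript as length the order of the members did not change, and ERBB2 averaged 34.9 TPM and NRG1 0.331 TPM over the 6 libraries.

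**Figure D1:**
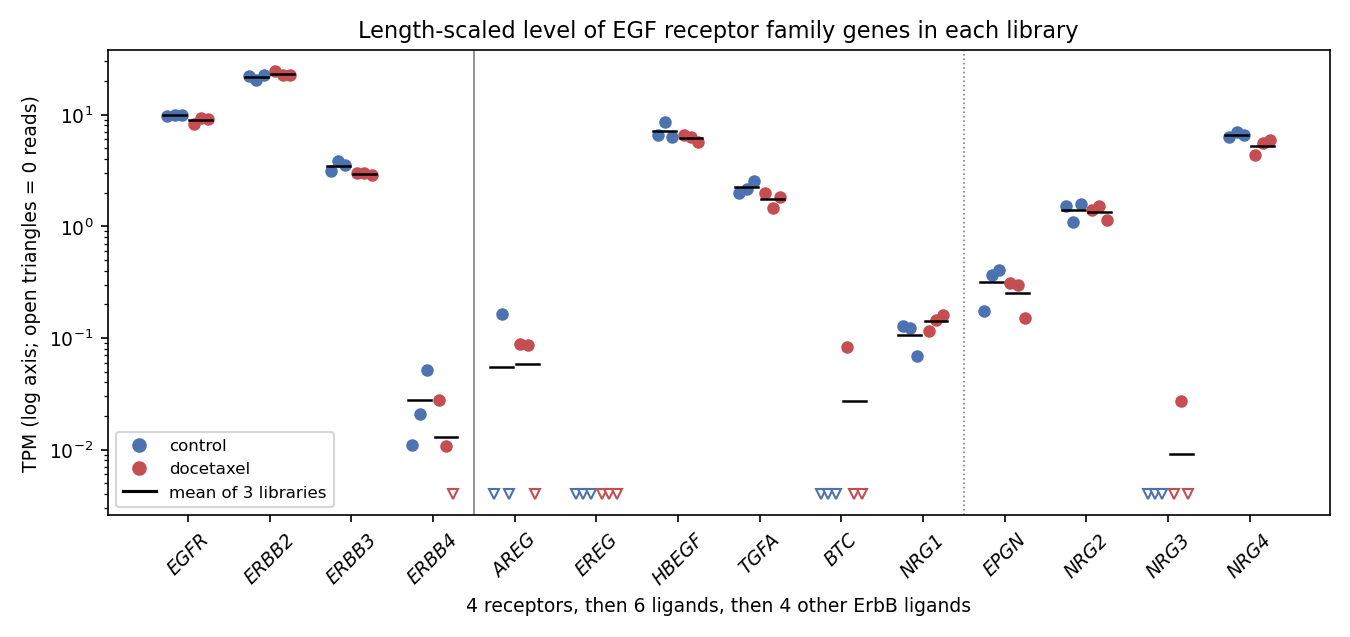
The plot gives the level of each family gene in TPM on a log axis, with 1 point per library (blue for control, red for docetaxel), black bars for the mean of 3 libraries and open triangles for libraries with 0 reads. ERBB2 and EGFR stand at the top, at 21.8 and 9.87 TPM in control, and EREG has 0 reads in all 6 libraries.

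With docetaxel 0 of the 10 members changed at an adjusted p under 0.05, by edgeR's quasi-likelihood test with Benjamini-Hochberg adjustment over all tested genes. Only 6 members had enough reads to be tested: EGFR, ERBB2, ERBB3, HBEGF, TGFA and NRG1. Over all 18040 tested genes 17.0% were called, 9.14% higher and 7.82% lower, and with library size as the only scaling the 1649 higher and 1410 lower genes became 1096 and 1866. DESeq2 and limma-voom also called 0 members, and 1 member, ERBB2, had an unadjusted p under 0.05 by edgeR and by limma-voom, against 28.5% of all tested genes by edgeR, and 0 members by DESeq2. The log2 fold changes of the 6 ran from -0.32 for TGFA to 0.44 for NRG1, with 2 above and 4 below 0. Their median was -0.13, beside 0.01 over all tested genes. In 0 of the 6 did the CPM of the groups separate, while groups did not overlap in 32.0% of all tested genes. In bulk RNA a change in the number of cells that express a gene and a change in RNA per cell cannot be told apart.

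EGFR, the receptor of most of the ligands above (ENSG00000146648, GRCh38 chromosome 7, 55019021 to 55211628, plus strand), had 54.5, 55.0 and 57.1 CPM in control replicates 1 to 3 and 47.0, 54.8 and 52.6 CPM in docetaxel replicates 1 to 3. All 3 docetaxel libraries lay below the control mean of 55.6 CPM, but the highest of them was above the lowest control library, and docetaxel replicate 1 was the lowest of all. The log2 fold change was -0.11 ± 0.06 (edgeR adjusted p = 0.25, SE), and its 95% confidence interval ran from 0.85-fold to 1.01-fold. Without docetaxel replicate 1 the value was -0.07, and without docetaxel replicate 2 it was -0.17.

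ERBB2, the partner receptor without a ligand (ENSG00000141736, chromosome 17, 39687914 to 39730426, plus strand), had 80.3, 73.1 and 84.5 CPM in control and 89.7, 85.7 and 83.9 CPM with docetaxel. Every docetaxel library exceeded the control mean of 79.3 CPM, and only docetaxel replicate 3 fell within the control range. ERBB2 gave a log2 fold change of 0.12 ± 0.05 (edgeR adjusted p = 0.12, SE), and the 95% confidence interval ran from 1.01-fold to 1.18-fold. The adjusted p stayed above the threshold in all 17 alternative fits, from 0.064 to 1.00, and the value fell to 0.07 without control replicate 2 and 0.08 without docetaxel replicate 1. ERBB2 overlaps 2 protein-coding genes of the opposite strand, PGAP3 and MIEN1, with 4213 and 13803 reads over all libraries against 19744 for ERBB2. Without a stated strand setting, reads in the overlaps cannot be told apart.

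ERBB3, the neuregulin receptor with a weak kinase (ENSG00000065361, chromosome 12, 56076799 to 56103505, plus strand), had 12.8, 15.6 and 14.7 CPM in control and 12.6, 12.9 and 12.3 CPM with docetaxel. The docetaxel libraries lay close together. Docetaxel replicates 1 and 3 were below every control library, and docetaxel replicate 2 was just above control replicate 1. The log2 fold change was -0.19 ± 0.10 (edgeR adjusted p = 0.23, SE), from 0.76-fold to 1.01-fold at 95% confidence. ERBB4, the other neuregulin receptor (ENSG00000178568, chromosome 2, 211375717 to 212538841, minus strand), was covered by 2, 4 and 10 reads in the control libraries and by 5, 2 and 0 in the docetaxel libraries. The summed counts gave 0.130 CPM in control (exact Poisson 95% interval 0.0741 to 0.211) and 0.0607 CPM with docetaxel (0.0244 to 0.125). Those intervals overlap, and ERBB4 had too few reads to test.

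HBEGF, a ligand of EGFR and ERBB4 that binds heparin (ENSG00000113070, chromosome 5, 140332843 to 140346631, minus strand), had 6.94, 8.92 and 6.71 CPM in control and 7.06, 7.02 and 6.18 CPM with docetaxel. Control replicate 2 stood above the 5 other libraries, which lay within 1 CPM of each other. The log2 fold change was -0.16 ± 0.14 (edgeR adjusted p = 0.53, SE). Its interval ran from 0.74-fold to 1.09-fold, and without control replicate 2 the log2 value was -0.01. TGFA, the EGFR ligand transforming growth factor α (ENSG00000163235, chromosome 2, 70447280 to 70554193, minus strand), had 3.42, 3.71 and 4.53 CPM in control and 3.45, 2.67 and 3.23 CPM with docetaxel. The groups overlapped, with control replicate 3 highest and docetaxel replicate 2 lowest. The log2 fold change of TGFA was -0.32 ± 0.19 (edgeR adjusted p = 0.30, SE), from 0.61-fold to 1.05-fold, and -0.19 without control replicate 3.

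NRG1, a neuregulin that binds ERBB3 and ERBB4 (ENSG00000157168, chromosome 8, 31639386 to 32767959, plus strand), was covered by 38, 39 and 22 reads in the control libraries and by 34, 44 and 48 in the docetaxel libraries. Its CPM were 0.963, 0.915 and 0.533 in control and 0.883, 1.15 and 1.24 with docetaxel, so the groups overlapped. The log2 fold change was 0.44 ± 0.37 (edgeR adjusted p = 0.49, SE), and the interval from 0.81-fold to 2.29-fold leaves changes of that size undetected at this depth. Without control replicate 3 the value was 0.22.

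The 3 remaining ligands lie near each other on chromosome 4 and were at or near 0 reads. AREG, amphiregulin (ENSG00000109321, 74445134 to 74455009, plus strand), was covered by 0, 4 and 0 reads in the control libraries and by 2, 2 and 0 in the docetaxel libraries. EREG, epiregulin (ENSG00000124882, 74365143 to 74388751, plus strand), had 0 reads in every library, which allows up to 0.0243 CPM over the control group and 0.0260 CPM over the docetaxel group. BTC, betacellulin (ENSG00000174808, 74744759 to 74794686, minus strand), had 0 reads in control and 3, 0 and 0 with docetaxel. For AREG the summed counts gave 0.0324 CPM in control (exact Poisson 95% interval 0.00883 to 0.0830) and 0.0347 CPM with docetaxel (0.00945 to 0.0888). A response of these genes was not detectable at this depth, and no fold is given.

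Of 18 annotated genes within 500 kb to either side of AREG, AREG included, 11 of them protein-coding, 7 had 0 reads in all libraries and 3 had enough reads to test. Among those 18 genes edgeR, DESeq2 and limma-voom each called 0 and each gave 1 with an unadjusted p under 0.05. Only MTHFD2L, a mitochondrial folate enzyme, reached 1 CPM on average. It had 7.07, 7.70 and 8.33 CPM in control and 6.80, 5.63 and 5.15 CPM with docetaxel. The groups did not overlap, and MTHFD2L was at -0.39 ± 0.14 on the log2 scale (edgeR adjusted p = 0.052, SE). Its adjusted p ran from 0.015 (without docetaxel replicate 1) to 1.00 over the alternatives, and passed also with RLE scaling, library size and the filter of 1 CPM. It was 0.69 with offsets for GC content and length. The chemokine gene CXCL2 had 12 to 23 reads in a library, and the fourth EGF-family ligand of this cluster, EPGN, had 7 to 20.

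The fold change of a gene in this comparison followed the GC content of its transcript, and the members are therefore given beside that trend. In the quintile of tested genes with 22.8 to 41.3% GC the median log2 fold change was -0.19, and in the quintile with 58.3 to 83.9% it was 0.18. ERBB2, at 57.5% GC, lay in the quintile with a median of 0.10, beside its own 0.12. ERBB3, at 52.0% GC, lay in the same quintile with -0.19. EGFR and HBEGF, at 47.5 and 50.9% GC, lay in the quintile with a median of 0.01, and TGFA and NRG1, at 45.9 and 43.9% GC, in that with a median of -0.08. When the smooth trend of each library on GC content and length entered the fit as offsets, the log2 fold change of ERBB2 was 0.02 ± 0.05 and that of EGFR -0.06 ± 0.06 (SE). In the same fit ERBB3 was at -0.23 ± 0.10, HBEGF at -0.21 ± 0.14, TGFA at -0.27 ± 0.19 and NRG1 at 0.56 ± 0.37 (SE). With these offsets edgeR called 0 members, while 4.11% of all tested genes were called, 2.32% higher and 1.79% lower. At an unadjusted p under 0.05 there was 1 member, ERBB3, beside 1574 genes higher and 1393 lower among all 18040 tested. The library names number the control libraries first and the docetaxel libraries after them. Anything tied to that order cannot be told apart from docetaxel here. The offsets would also take out an effect of docetaxel that follows GC content. What makes GC content move with the groups was not tested.

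**Figure D2:**
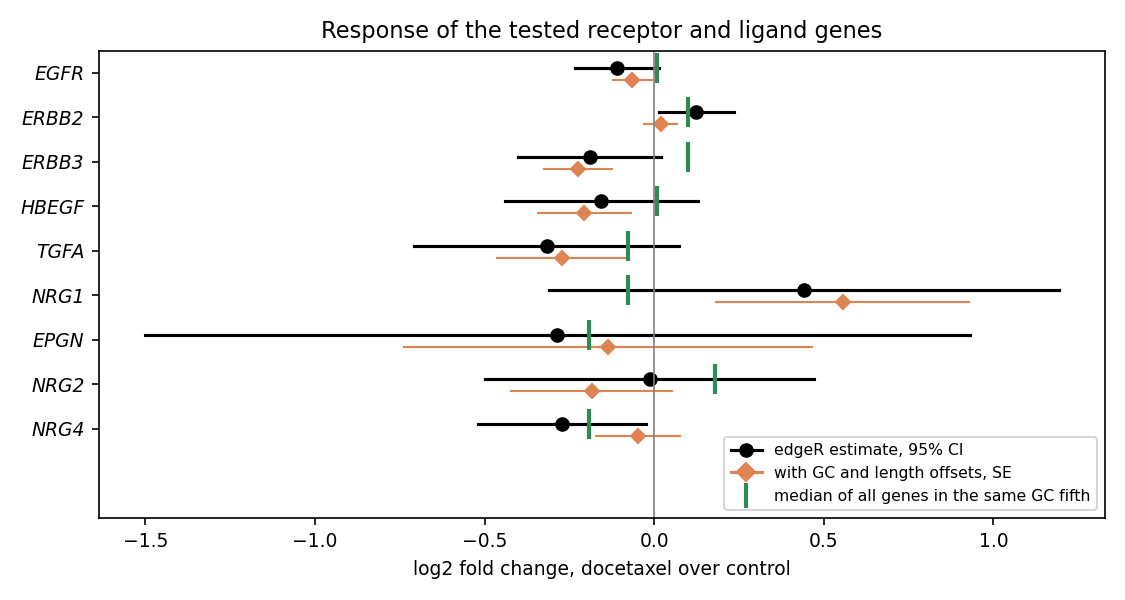
The plot gives the log2 fold change of docetaxel over control for the 6 tested members and the 3 other tested ligands, with black points and 95% confidence intervals from edgeR, orange diamonds with standard errors from the fit with GC and length offsets, and green bars for the median of all tested genes in the same quintile of GC content. ERBB2 moves from 0.12 to 0.02 with the offsets, and ERBB3 from -0.19 to -0.23.

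A ratio within a library does not depend on how libraries are scaled, so the make-up of the receptor transcripts was compared as well. ERBB2 made up 63.3, 59.7 and 62.7% of the summed receptor TPM in control and 68.3, 64.6 and 65.1% with docetaxel. Its share was higher in every docetaxel library than in any control library, by 4.12 percentage points on average. The share of EGFR was 27.8, 29.1 and 27.5% in control and 23.2, 26.8 and 26.4% with docetaxel, again without overlap. For ERBB3 the shares were 8.90, 11.2 and 9.65% in control and 8.45, 8.60 and 8.41% with docetaxel, which also separated, while ERBB4 stayed at or below 0.143% in every library. An exact two-sided permutation test gave p = 0.1 for each of ERBB2, EGFR and ERBB3, the smallest p that 3 libraries against 3 allow, and 0.325 after Benjamini-Hochberg adjustment over the 13 shares computed. None of these 3 shifts therefore passed the threshold. Shares of a sum are not independent of each other, since a higher share of ERBB2 lowers the rest.

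The ratio of ERBB2 to EGFR reads was 1.47, 1.33 and 1.48 in control and 1.91, 1.56 and 1.60 with docetaxel. Its mean was 1.18 times as high with docetaxel, and docetaxel replicate 1 was the farthest from the control libraries. After division by the trend on GC content and length, an alternative added with the data in view, the ratios were 1.53, 1.45 and 1.53 in control and 1.83, 1.46 and 1.52 with docetaxel. The groups then overlapped (exact two-sided permutation p = 0.6). With the same offsets the difference in ERBB2 share was 1.99 percentage points, the groups overlapped for ERBB2 and EGFR, and they did not overlap for ERBB3.

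**Figure D3:**
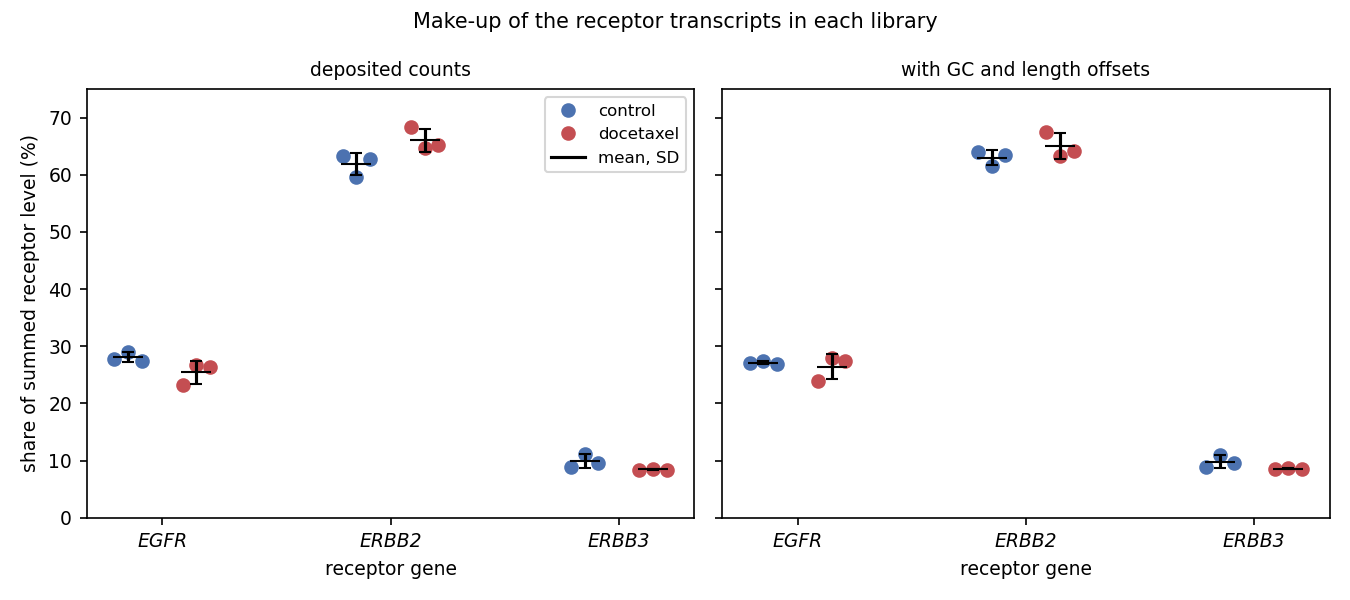
The plots give the share of EGFR, ERBB2 and ERBB3 in the summed receptor TPM in percent, with 1 point per library and the mean and SD of each group in black, from the deposited counts on the left and with GC and length offsets on the right. The ERBB2 shares of the groups are 59.7 to 63.3% and 64.6 to 68.3% on the left and overlap on the right.

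Among ligands, HBEGF and NRG4 held most of the summed TPM of the 10 ErbB ligand genes described here, a set without EGF. NRG4 overlaps FBXO22 on the opposite strand, and without a stated strand setting reads in the overlap cannot be told apart. This limit holds for every ligand share, since NRG4 is part of the sum. HBEGF made up 39.9 ± 4.1% in control and 41.2 ± 3.1% with docetaxel (SD, n = 3 each), and TGFA 12.6 ± 1.9% and 11.6 ± 1.9%. For both the groups overlapped. NRG1 made up 0.768, 0.634 and 0.400% in control and 0.778, 0.942 and 1.08% with docetaxel. These shares did not overlap, with an exact two-sided permutation p = 0.1 and 0.325 after adjustment, and control replicate 1 and docetaxel replicate 1 differed by about 0.01 percentage points. The size of the NRG1 share depends on the deposited length: the mean difference was 0.331 percentage points of the summed TPM and 1.64 percentage points of the summed reads. Among all 6 ligand members HBEGF was the highest in every library, and TGFA the next.

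Of the 4 other ErbB ligand genes described here, 3 had enough reads to test and 0 of them passed by edgeR, DESeq2 or limma-voom. NRG4 alone had an unadjusted p under 0.05, by edgeR and limma-voom. NRG4, a ligand of ERBB4, stood at 6.56 ± 0.34 TPM in control and 5.28 ± 0.86 TPM with docetaxel, next to HBEGF in the order of levels. It had 11.1, 12.1 and 11.7 CPM in control and 7.71, 10.4 and 10.8 CPM with docetaxel. The groups did not overlap, with docetaxel replicate 1 lowest, and the log2 fold change of -0.27 ± 0.12 did not pass (SE, edgeR adjusted p = 0.13). At 37.7% GC it lay in the quintile with the lowest GC content, and with offsets the value was -0.05. Without docetaxel replicate 1 it was -0.15. FBXO22, which overlaps NRG4 on the opposite strand, had 16703 reads against 2547 for NRG4, so the level of NRG4 may hold reads of that gene. NRG2 was at 2.28 ± 0.46 and 2.26 ± 0.33 CPM, EPGN, epigen, at 0.370 ± 0.148 and 0.304 ± 0.106 CPM, and NRG3 had 2 reads in all.

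The genes that act before and after the receptors were taken from 7 lists that also hold those 4 ligands. In all, 78 of 83 genes were tested, and 12 rose and 9 fell with docetaxel, which is 26.9% against 17.0% of all tested genes. The lists were chosen with earlier results of these data known, and the 2 shares are not matched for level of expression. The difference between them was therefore not tested and is not a result about these lists. The genes that rose had a median GC content of 61.5% and those that fell 38.5%. With GC and length offsets 5 genes of these lists were higher and 1 lower. In that fit 2.32% of all tested genes were higher and 1.79% lower. Of the 21 calls 5 were among those 6. They were FOS, EGR1, JUNB, EPN1 and CCND1, and the 6th was RAB11A, a GTPase of recycling endosomes. CCND1 and RAB11A are named for these values.

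Of 9 tested genes for the proteases that release the ligands and for their partners, 2 rose and 3 fell, with a median log2 fold change of -0.07. Beside the counts of this list and those below, 9.14% of all tested genes were higher and 7.82% lower. RHBDF2, an inactive rhomboid that carries ADAM17 to the cell surface, went up 1.21-fold (edgeR adjusted p = 0.00041), with 59.6 ± 1.1 CPM in control and 72.3 ± 0.2 CPM with docetaxel (n = 3 each, SD). ADAM15 rose 1.14-fold, from 383 ± 19 to 437 ± 6 CPM. ADAM10, a main sheddase of EGF-family ligands, fell by 0.23 ± 0.06 on the log2 scale (SE, edgeR adjusted p = 0.0083), and ADAM9 and ADAM17 were the others that fell. The genes that rose had 62.9 and 63.9% GC, and those that fell 38.3 to 39.4%. With offsets edgeR called 0 of the 9, with 0 at an unadjusted p under 0.05. The count of genes lower was 1 without control replicate 2, without control replicate 3 or without docetaxel replicate 3, and ADAM10 did not pass without control replicate 3 (0.060).

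Of 16 adaptor and RAS-ERK genes 2 rose and 3 fell, with a median log2 fold change of -0.05. NRAS, a RAS GTPase, fell by 0.26 ± 0.05 on the log2 scale (SE, edgeR adjusted p = 0.00094), with 128 ± 8 CPM in control and 107 ± 8 CPM with docetaxel (n = 3 each, SD). SOS1, a RAS activator, fell by 0.19, HRAS rose 1.18-fold, and MAP2K2, the kinase MEK2, rose 1.18-fold, from 338 ± 11 to 400.5 ± 9.1 CPM. With offsets NRAS was at -0.07 and MAP2K2 at 0.09, and edgeR called 0 of the 16, with 3 at an unadjusted p under 0.05. Of 9 PI3K-AKT genes 1, AKT2, rose 1.13-fold, and 0 fell by edgeR, DESeq2 or limma-voom, with 2 lower at an unadjusted p under 0.05 by edgeR. PIK3CA and PIK3CB, catalytic subunits of PI3K, were at -0.28 ± 0.13 and -0.14 ± 0.07 (SE, edgeR adjusted p of 0.14 and 0.17), and the sign of both turned with offsets, to 0.01 and 0.04. With offsets AKT2 was at 0.08 and did not pass (edgeR adjusted p = 0.24). PIK3CA passed only without docetaxel replicate 2 (0.049), and 1 gene of this list was lower without docetaxel replicate 1.

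Of 16 tested genes that restrain the receptors, 0 rose by edgeR, DESeq2 or limma-voom, with 0 higher at an unadjusted p under 0.05, and 1 fell. It was PTPN12, a tyrosine phosphatase, which fell by 0.34 ± 0.07 on the log2 scale (SE, edgeR adjusted p = 0.00078, and 0.069 with offsets). SH3KBP1, an adaptor of receptor endocytosis, was at -0.14 ± 0.06 and CBL, a ubiquitin ligase of EGFR, at -0.21 ± 0.10 (SE, edgeR adjusted p of 0.097 and 0.16). CBL passed only without docetaxel replicate 1 (0.0066), and SH3KBP1 only with library size as the scaling (0.034). LRIG1, a further inhibitor of the receptors, had 2 to 16 reads in a library, too few to test.

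Of 13 genes of receptor endocytosis and sorting, 4 rose and 1 fell. EPN1, epsin 1, an endocytic adaptor, went up 1.25-fold (edgeR adjusted p = 6.33e-05), with 298 ± 25 CPM in control and 373 ± 11 CPM with docetaxel (n = 3 each, SD), and was at 0.29 on the log2 scale with offsets (edgeR adjusted p = 0.0026). HGS, which sorts ubiquitinated receptors on endosomes, rose 1.19-fold, and AP2M1, a subunit of the clathrin adaptor AP-2, rose 1.15-fold. With offsets HGS and AP2M1 did not pass, at edgeR adjusted p of 0.19 and 0.094. The others were AP2A1, a further AP-2 subunit, which rose 1.15-fold, and USP8, a deubiquitinase of endosomes, which fell by 0.27 on the log2 scale. Neither passed with offsets (edgeR adjusted p of 0.71 and 0.67). The count of genes lower was 0 without control replicate 1, control replicate 2, docetaxel replicate 2 or docetaxel replicate 3, and 3 without docetaxel replicate 1.

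Of 13 tested genes known to follow ERK activity 3 rose and 1 fell, with a median log2 fold change of 0.11. FOS, JUNB and EGR1, immediate early transcription factors, were higher with docetaxel, at log2 fold changes of 2.06, 0.74 and 3.01, or 1.99, 0.53 and 2.89 with offsets. They stood at 16.7 ± 0.3, 105 ± 2 and 3.07 ± 1.00 CPM in control and at 69.4 ± 2.4, 176 ± 4 and 24.8 ± 1.3 CPM with docetaxel (n = 3 per group, SD). The gene that fell was CCND1, which encodes cyclin D1, at -0.18 ± 0.06 (SE, edgeR adjusted p = 0.027). CCND1 was the call that did not pass with the replicate block, or without control replicate 2, control replicate 3, docetaxel replicate 2 or docetaxel replicate 3, and its CPM overlapped between groups. DUSP6, a phosphatase of ERK, had 2.00, 2.04 and 1.72 CPM in control and 1.35, 1.47 and 1.53 CPM with docetaxel and did not pass (edgeR adjusted p = 0.34). DUSP4 and DUSP5 of the same list lay on the other side of 0, at 0.24 ± 0.09 and 0.07 ± 0.11. Neither passed (SE, edgeR adjusted p of 0.059 and 0.76). The other tested genes of this list did not pass by edgeR either. IER3, FOSL1, ETV5, ETV4 and PHLDA1 were at log2 fold changes of 0.12, 0.11, 0.06, 0.03 and 0.02, and SPRY4 at 0.61 ± 0.42 (SE). Whether ERK activity changed was not tested. In the same libraries no receptor or ligand member passed the test, and the log2 fold changes of the 6 tested stayed between -0.32 and 0.44.

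**Figure D4:**
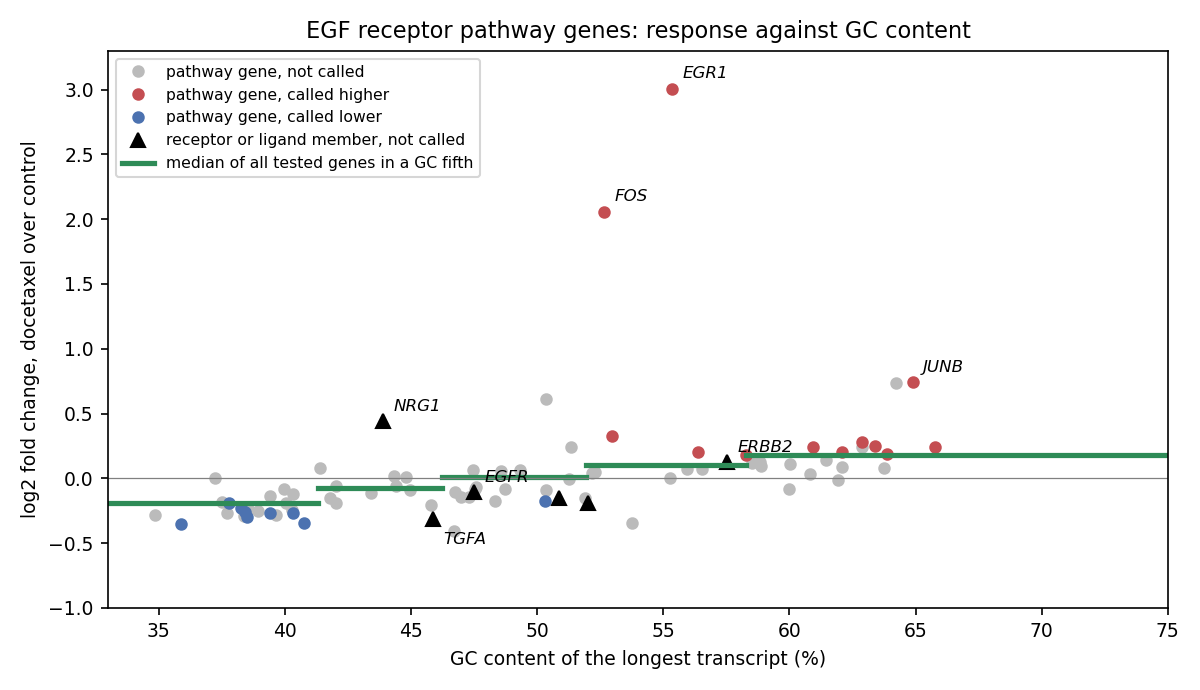
The plot sets the log2 fold change of docetaxel over control (vertical axis) against the GC content of the longest transcript in percent for 78 tested pathway genes (circles, red where called higher, blue where called lower, grey where not called) and the 6 tested members (black triangles), with green lines for the median of all tested genes in each quintile of GC content. FOS at 2.06 and EGR1 at 3.01 stand far above these lines, while the members lie between -0.32 and 0.44.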

How the data were processed

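Raw read counts per gene from 6 libraries, 3 control and 3 docetaxel, were deposited by the authors as 1 table with a gene length column. Counting used featureCounts 2.0.1 and quality reports MultiQC 1.11 with GRCh38 as the build (per the submitters' processing notes); the aligner, annotation release, strand setting and handling of multi-mapping reads were not given in the sources used here. Columns were assigned by the library names in the labels.

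Gene symbols were matched by Ensembl identifier (61481 of 78932 rows), coordinates, GC content and longest transcripts from GENCODE 29 (57356 rows), and promoters from RefSeq (8 of 10 members). The planned comparison of ligand protein sequences was not made. The groups were compared with edgeR 4.0.16 under R 4.3.3 (filterByExpr, TMM, robust quasi-likelihood fit, no block, common coefficient of variation 0.0759), with Benjamini-Hochberg adjustment over all genes kept and a threshold of 0.05. Each standard error was set to match the p of its test. TPM used the deposited lengths. Shares were compared by exact permutation tests.

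The offsets come from loess curves (span 0.5), 1 per library, of log2 CPM minus the gene's mean against GC content and length, over genes of at least 5 CPM. Alternatives tried were scaling by RLE, upper quartile or library size; limma-voom (limma 3.58.1) and DESeq2 1.42.0; no filter, or 1 CPM in 3 libraries; a block for the replicate number; the offsets, also with that block; glmTreat with a fold of 1.5; and each library left out. Members, lists and tests were chosen with earlier results of these data known. Named were all members and the other ErbB ligands, the 3 genes with the smallest p of each list, and genes near AREG of at least 1 CPM; any other gene was picked with its values in view. 1 gene that this rule names is not reported here. Libraries of a group differed beyond sampling noise in every pair (dispersion index 4.92 to 12.7).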

Additional observations from a re-analysis of the deposited data

How the results depend on the processing

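Over the 17 alternative fits the 6 tested members kept the sign of their log2 fold change in all 101 values, NRG1 being absent with the filter of 1 CPM. Among these fits glmTreat reuses the log2 fold changes reported above, so its signs could not differ, and it tests against a fold of 1.5. Of the 6 members 0 passed the threshold. The smallest edgeR adjusted p was 0.064, for ERBB2 without control replicate 3. The count of members called was 0 in every fit. Genes higher with docetaxel numbered 1649, and 1096 with library size as scaling, 419 with GC and length offsets, 277 with the replicate block and these offsets, and 6 with glmTreat. Genes lower numbered 1410, and 323, 216 and 0 in the last 3 of these fits, with 60 lower at an unadjusted p under 0.05 by glmTreat. Leaving out 1 library gave 990 to 1397 higher and 740 to 1841 lower. The higher counts were 990 without control replicate 2, 1089 without docetaxel replicate 2 and 1056 without docetaxel replicate 3, and the lower counts 740 without control replicate 2 and 768 without docetaxel replicate 3. The replicate block alone gave 1283 higher and 1106 lower and called no member. Same-numbered libraries did not deviate together (r of -0.04, -0.06 and 0.02), so the numbers were not read as pairs.

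The sign of NRG2 turned with upper-quartile scaling (0.00069) and limma-voom (0.0019), and its value without 1 library ran from -0.17 to 0.10. PIK3CA went to 0.013 with offsets and 0.0055 with the block and offsets, and PIK3CB to 0.042 and 0.043. In the order of levels 12 of 14 family genes kept their rank with the longest transcript as length, where NRG4 and HBEGF changed places, and 11 to 14 without 1 library. The cause of these changes was not tested. Of the 21 calls in the pathway lists 5 were also made with offsets. Depth limits NRG1 and the 4 members too low to test.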
